A study of Mus musculus with 6 samples.

Results

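The genes described here encode the receptor for parathyroid hormone (PTH) and the proteins that act next to it at the plasma membrane. They are 10 of the 39179 genes listed for the series, chosen by symbol and read in all 6 libraries: the receptor gene Pth1r, the G protein alpha subunit genes Gnas, Gnaq, Gna11 and Gnai2, the adenylyl cyclase genes Adcy3, Adcy6, Adcy7 and Adcy9, and the beta-arrestin gene Arrb2. All 10 passed the filter on low values, which asked for at least 0.5 RPKM (the deposited unit, which divides reads by gene length and by library size) in at least 2 of the 6 libraries. RNA came from Ocy454, a mouse osteocytic cell line, in the form of 1 subclone grown from a single cell. The cells were grown to confluency at 33 °C and then kept at 37 °C for 14 days. They were then exposed for 4 h to vehicle, to 1 nM PTH 1-34, or to 0.5 µM YKL-05-093, which inhibits salt-inducible kinases, with 2 libraries for each condition. The labels give the vehicle as PBS with 25 mM HCl, whereas the study's methods name DMSO as the solvent for compounds given to cultured cells, so the solvent is uncertain. No genotype or other agent is given for any group, and the subclone and culture steps are described alike for all 3 conditions. The study asked how far inhibition of these kinases resembles PTH treatment, and the present comparisons ask whether the upstream part of the PTH pathway differed in mRNA between the conditions.

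PTH binds a class B G protein-coupled receptor on osteoblasts and osteocytes. The receptor couples to Gs alpha, the product of Gnas, which stimulates adenylyl cyclases to make cAMP, and to Gq and G11, the products of Gnaq and Gna11, which activate phospholipase C beta. Gi alpha subunits such as the product of Gnai2 inhibit several adenylyl cyclases, and beta-arrestins bind the phosphorylated receptor, stop its coupling to G proteins and take part in its internalization.

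The library totals, worked back from the RPKM values, lay between 17505798 and 27983585 reads, both ends of the range being vehicle libraries. They are not the sequencing depth, which the study's methods give in read pairs. The study's methods speak of experimental duplicates for each condition. Neither they nor the labels say that the 2 libraries of a condition came from separate cultures. The p-values below therefore measure the spread between these libraries, which may be technical. In RNA from a whole culture, fewer cells of a kind and less RNA per cell cannot be told apart. Of 6 osteocyte markers, 3 reached 0.5 RPKM in both vehicle libraries (Dmp1, Phex and Pdpn), while Sost and Fgf23 did not exceed 0.0544 RPKM and Mepe did not exceed 0.136 RPKM in any library. All 8 osteoblast markers reached 0.5 RPKM in every library. Among the blood cell markers, Ptprc did not exceed 0.0263 RPKM, Itgam 0.0177 RPKM and Csf1r 0.133 RPKM, and Hbb-bt was at 0. The macrophage marker Cd68 alone of that list was higher, at 3.69 to 4.42 RPKM. Summed over their lists, epithelial and muscle markers did not exceed 0.395 RPKM and 0.282 RPKM. Adipocyte markers summed to 1.87 to 3.82 RPKM, most of it Fabp4 and Pparg. Chondrocyte markers summed to 1.83 to 3.50 RPKM, most of it Col2a1 and Sox9. The summed endothelial markers were 0.724 to 1.14 RPKM in vehicle, 1.14 to 1.44 RPKM in PTH and 1.95 to 2.17 RPKM in YKL-05-093, most of it Kdr and Tek, with Cdh5 at 0 in every library. The summed osteocyte markers were 55.7 to 73.3 RPKM in vehicle, 165 to 176 RPKM in PTH and 98.4 to 99.1 RPKM in YKL-05-093, most of it Pdpn. Phex also had higher means with both treatments (1.29 RPKM in vehicle, 3.42 RPKM in PTH and 3.76 RPKM in YKL-05-093). Dmp1 went the other way, with means of 0.899, 0.706 and 0.433 RPKM in the same order. In YKL-05-093, 2 of the 6 markers reached 0.5 RPKM in both libraries. The summed osteoblast markers were 814 to 895 RPKM in vehicle, 952 to 1158 RPKM in PTH and 951 to 1222 RPKM in YKL-05-093. Of the 8 osteoblast markers, Bglap and Bglap2 rose with PTH, to 2.90 and 2.76 times the vehicle mean (limma, adjusted p = 0.0283 and 0.0279), Sp7 fell to 0.254 times (adjusted p = 0.00189), and the other 5 did not pass the test. In the other lists, Pdpn and Col2a1 rose with PTH, to 2.68 and 2.70 times the vehicle mean (limma, adjusted p = 0.0147 for each). Kdr rose with YKL-05-093, to 2.99 times the vehicle mean (limma, adjusted p = 0.0377). The part of these shifts in the results below was not tested.

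The members were listed at levels that spanned a wide range in vehicle-treated cells. In vehicle, Gnai2 stood highest at 126 ± 1.72 RPKM (SD, n = 2), followed by Pth1r at 57.8 ± 8.03 RPKM and Gna11 at 28.1 ± 1.52 RPKM, and the libraries of these 3 genes did not overlap with those of the next gene in the order. Adcy6 (12.7 ± 3.93 RPKM), Arrb2 (10.6 ± 1.45 RPKM) and Gnaq (8.07 ± 2.73 RPKM) overlapped with their neighbours, as did Adcy3 (4.62 ± 0.631 RPKM), Adcy7 (3.98 ± 0.98 RPKM) and Adcy9 (3.56 ± 1.54 RPKM). Gnas was listed lowest, at 0.64 ± 0.114 RPKM. The first 3 places and the last were the same in all 3 conditions.

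**Figure D1:**
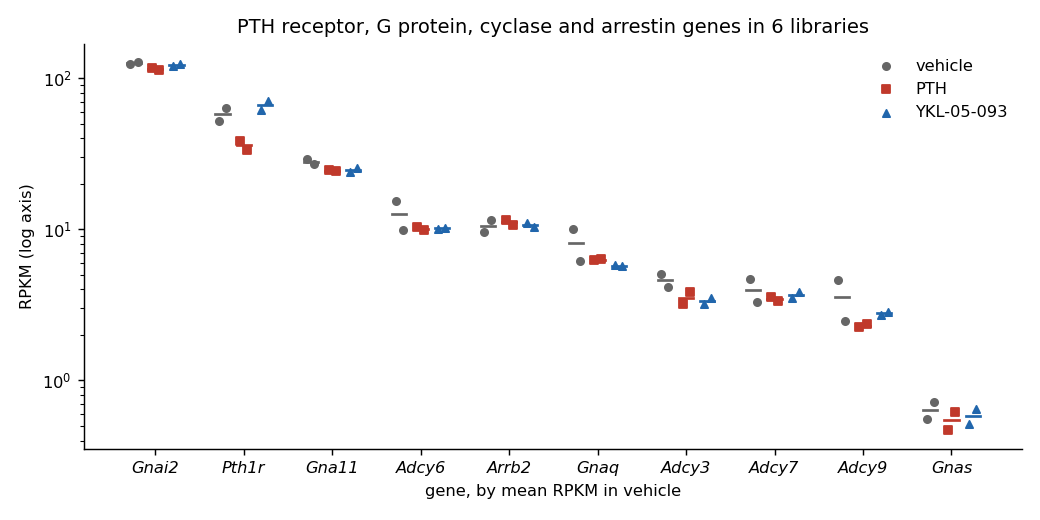
RPKM on a log axis for the 10 genes, ordered by their mean in vehicle, with 1 point for each library and a bar at the mean of the 2 libraries of a condition. Pth1r is the gene whose PTH libraries, at 38.5 and 33.4 RPKM, stand clearest below the other conditions, and for Gnaq, Adcy6 and Adcy9 the vehicle points lie far apart.

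Pth1r mRNA was lower in PTH-treated than in YKL-05-093-treated cells. The receptor gene was at 52.1 and 63.4 RPKM in the vehicle libraries, at 38.5 and 33.4 RPKM in the PTH libraries and at 61.4 and 70.7 RPKM in the YKL-05-093 libraries, with between 1574 and 4383 reads behind each value. Both PTH libraries lay below all 4 others, and the vehicle and YKL-05-093 libraries overlapped. Between the treatments the PTH mean was 0.544 of the YKL-05-093 mean, a log2 fold change of -0.88 ± 0.082 (SE), with a 95% interval of -1.05 to -0.70 and an adjusted p of 2.06e-06 (limma on log2(RPKM + 0.1), Benjamini-Hochberg over 14255 genes). Against vehicle the PTH mean was 0.622 of the vehicle mean, a log2 fold change of -0.68 ± 0.183 (SE) with an interval of -1.11 to -0.25, and the adjusted p of 0.148 did not pass the threshold of 0.05 (limma). For YKL-05-093 against vehicle the log2 fold change was 0.20 ± 0.183 (SE), with an interval of -0.24 to 0.63 and an adjusted p of 0.855 (limma). An exact permutation test of 2 libraries against 2 cannot give a p below 0.333.

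The Pth1r call between the treatments was lost when 1 PTH library was left out, whichever it was. Over all the fits without 1 library, of either treatment, the difference ranged from -0.98 to -0.77 on the log2 scale. Without PTH replicate 1 or PTH replicate 2 the difference between the treatments was -0.98 and -0.77 on the log2 scale, with adjusted p-values of 0.144 and 0.164 (limma, the lone PTH library being assumed to vary like the YKL-05-093 pair). It also missed the threshold with no filter on low values (adjusted p = 0.0636) and with no trend in the variances (adjusted p = 0.098). With vehicle replicate 1 or vehicle replicate 2 left out, the difference from vehicle was -0.82 and -0.54 on the log2 scale. Fits with a lone vehicle library take their spread from the PTH pair, so their p-values do not measure the spread of vehicle. The median log2 difference over genes was 0.108 in the PTH pair and 0.333 in the vehicle pair. In every one of these fits Pth1r was lower with PTH.

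Pth1r lies on the minus strand at chr9:110722085-110747145 (GRCm38), and RefSeq gives it 3 start sites in GRCm38.p6. The cAMP response element that CREB binds has TGACGTCA as its full form and TGACG as its core. Searched on both strands over the 250 bases before each start, the full form was in 1.55% of all 32851 RefSeq windows and the core in 17.8%. Of the 10 genes, 7 had windows in the table, 15 in all, and 6 of these held the core and none the full form. Of these 6, 2 are Gnas windows that overlap and hold the same site. The window before the outermost Pth1r start is shown because Pth1r is the member that differed between the treatments and this is the only one of its windows with a core, on the opposite strand, 161 bases before the start (CGTCA, in capitals). A match of these letters is a description and not a binding site.
Pth1r, chr9:110747146-110747395, minus strand, GRCm38.p6: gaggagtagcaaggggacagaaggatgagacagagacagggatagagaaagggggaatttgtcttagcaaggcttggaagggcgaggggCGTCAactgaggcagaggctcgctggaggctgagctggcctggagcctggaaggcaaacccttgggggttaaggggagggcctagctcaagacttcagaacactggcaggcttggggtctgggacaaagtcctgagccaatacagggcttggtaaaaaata

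None of the 4 member genes for G protein alpha subunits passed the test in any comparison. Gnai2 was at 125 and 127 RPKM in vehicle, 116 and 113 RPKM in PTH, and 121 and 124 RPKM in YKL-05-093. Its PTH libraries were the lowest and its groups did not overlap, but the shifts were small, at -0.14 ± 0.169 (SE) for PTH against vehicle and -0.10 ± 0.066 for PTH against YKL-05-093 on the log2 scale, with adjusted p-values of 0.8 and 0.415 (limma). Gna11 was at 29.1 and 27.0 RPKM in vehicle, 24.5 and 24.2 RPKM in PTH, and 23.9 and 25.5 RPKM in YKL-05-093. All 4 treated libraries lay below both vehicle libraries, with log2 fold changes of -0.20 ± 0.163 (SE) for PTH and -0.19 ± 0.16 for YKL-05-093 and adjusted p-values of 0.69 and 0.85 (limma).

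Gnaq, the partner of Gna11 in the phospholipase C arm, was at 9.998 and 6.14 RPKM in vehicle, 6.22 and 6.32 RPKM in PTH, and 5.78 and 5.72 RPKM in YKL-05-093. Vehicle replicate 1 alone stood high, and vehicle replicate 2 lay within 0.418 RPKM of all 4 treated libraries. The log2 fold changes were -0.32 ± 0.237 (SE) for PTH and -0.44 ± 0.239 for YKL-05-093, with adjusted p-values of 0.669 and 0.735 (limma). Without vehicle replicate 1 the PTH value became 0.029.

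Gnas was listed at 0.559 and 0.721 RPKM in vehicle, 0.467 and 0.622 RPKM in PTH, and 0.517 and 0.649 RPKM in YKL-05-093, with 99 to 204 reads behind each value, and the 3 conditions overlapped. The log2 fold change was -0.20 ± 0.213 (SE) for PTH against vehicle, with an interval of -0.70 to 0.30 and an adjusted p of 0.768 (limma). These values are not read here as the level of Gs alpha mRNA. In the GENCODE M21 annotation of GRCm38, Gnas lies on the plus strand at chr2:174284320-174346744, and a gene model on the minus strand, Gm20721, has 99.0% of its exon bases inside exons of Gnas. For the 2 annotated Gnas transcripts with a coding sequence in the CCDS set that begin at the Gs alpha first exon, at positions 174330006 and 174330089, exons of Gm20721 cover 80.4% and 85.4% of the exon bases. Gm20721 was listed at 0 in all 6 libraries. Whether the counting used strand is not given in the sources used here, and without strand the reads of the 2 genes cannot be told apart. The part of the overlap in the Gnas values was not tested.

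Of the other members, Adcy3 shared 22.1% of its exon bases with Cenpo on the other strand, Adcy6 shared 8.92% with Gm29331 and Pth1r shared 3.25% with Myl3, while Gnaq, Gna11, Gnai2, Adcy7 and Adcy9 shared none.

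**Figure D2:**
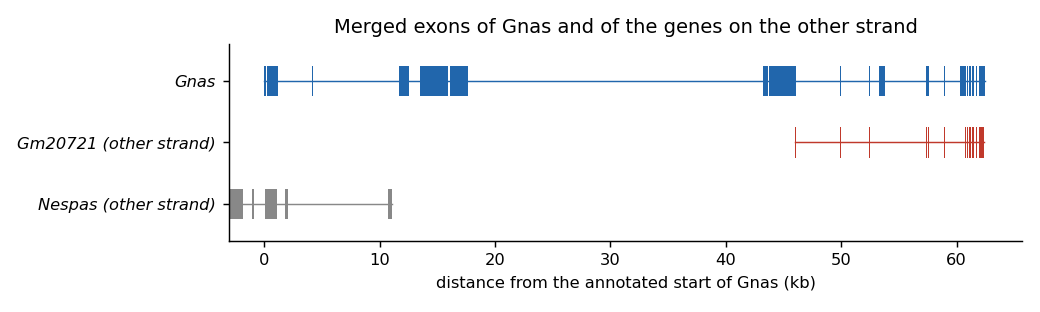
Exons of Gnas and of 2 genes on the other strand, merged over transcripts, by distance in kb from the annotated start of Gnas. Boxes are exons and lines join the first and last exon of a gene, and the exons of Gm20721 lie on those of the 3' part of Gnas, covering 13.1% of all its exon bases.

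Among the cyclases, 4 of the 10 family genes made up nearly all of the mRNA. Adcy3, Adcy6, Adcy7 and Adcy9 together held between 99.1% and 99.6% of the summed RPKM of the 10 adenylyl cyclase genes in every library. Adcy6, a cyclase that Gi alpha and calcium inhibit, held 49.6% to 52.9% of the sum, Adcy3 held 16.3% to 20.9%, Adcy7 held 15.5% to 18.8%, and Adcy9, which is largely insensitive to forskolin, held 11.6% to 15.5%. Adcy4, the next in the family, did not exceed 0.129 RPKM. The shares varied little between conditions, whereas the summed level ran from 19.6 RPKM to 30.1 RPKM, with the highest value in vehicle replicate 1.

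No cyclase gene passed the test. Adcy6 was at 15.5 and 9.90 RPKM in vehicle, 10.3 and 9.86 RPKM in PTH, and 10.1 and 10.2 RPKM in YKL-05-093. Apart from vehicle replicate 1, its libraries lay within 0.488 RPKM of each other. The difference between the treatments was -0.0092 ± 0.07 (SE) on the log2 scale, with an interval of -0.16 to 0.14 (limma, adjusted p = 0.963). Adcy9 was at 4.65 and 2.47 RPKM in vehicle, 2.26 and 2.35 RPKM in PTH, and 2.72 and 2.85 RPKM in YKL-05-093. Its PTH libraries were the lowest of the 6, and its log2 fold change was -0.54 ± 0.277 (SE) for PTH against vehicle (limma, adjusted p = 0.485) and -0.26 ± 0.098 for PTH against YKL-05-093 (adjusted p = 0.112). Without vehicle replicate 1 the value for PTH against vehicle became -0.097.

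Adcy3 was at 5.06 and 4.17 RPKM in vehicle, 3.22 and 3.84 RPKM in PTH, and 3.18 and 3.50 RPKM in YKL-05-093. All 4 treated libraries lay below both vehicle libraries, with log2 fold changes of -0.38 ± 0.18 (SE) for PTH and -0.45 ± 0.172 for YKL-05-093 and adjusted p-values of 0.438 and 0.498 (limma). Adcy7, which Gbeta-gamma can stimulate together with Gs alpha, was at 4.67 and 3.28 RPKM in vehicle, 3.57 and 3.36 RPKM in PTH, and 3.49 and 3.87 RPKM in YKL-05-093. Its treated libraries all lay between the 2 vehicle libraries.

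Arrb2 was at 9.54 and 11.6 RPKM in vehicle, 11.6 and 10.7 RPKM in PTH, and 10.9 and 10.4 RPKM in YKL-05-093. The conditions overlapped, and the log2 fold changes of 0.083 ± 0.171 (SE) for PTH and 0.022 ± 0.169 for YKL-05-093 had adjusted p-values of 0.891 and 0.987 (limma). Arrb2 was the member without a lower mean after either treatment.

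Counted over the members, none of the 10 was called for PTH against vehicle, where 2.19% of all 14261 tested genes were called, and none for YKL-05-093 against vehicle, where 0.666% of 14255 were called (limma, adjusted p under 0.05). At an unadjusted p under 0.05, 1 member passed for PTH (Pth1r, against 13.3% of all genes) and 1 for YKL-05-093 (Adcy3, against 8.67%), and voom on the recovered reads gave the same counts of called and unadjusted members. Between the treatments 1 member was called, Pth1r, against 9.97% of all genes in either direction and 5.11% in the lower direction, and 2 passed at an unadjusted p under 0.05 (Pth1r and Adcy9, against 22.3%). Libraries of the groups did not overlap for 5 members in PTH against vehicle, where the share of all genes was 43.1%, for 4 in YKL-05-093 against vehicle (37.8%) and for 4 in PTH against YKL-05-093 (50.0%). These counts were close to those of genes at large.

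The members leaned lower than vehicle without passing the test. The median log2 fold change of the 10 was -0.25 for PTH and -0.15 for YKL-05-093, beside -0.031 and -0.042 for all tested genes, and 9 and 8 members had a value below 0, beside 54.3% and 56.8% of all genes (Gnai2 turned to 0.0048 for YKL-05-093 under median-ratio scaling). Both comparisons share their 2 vehicle libraries. Without vehicle replicate 1 the medians of the members were -0.12 for PTH and -0.073 for YKL-05-093. Gnas, whose values are not read as Gs alpha mRNA, was among the members below 0 in both comparisons. Between the treatments the median was -0.051 for the members and 0.014 for all genes. Taken over the 9 members other than Pth1r, the 95% intervals ended no lower than -0.47 and no higher than 0.29 between the treatments. In PTH against vehicle these outer ends were -1.19 and 0.48. When YKL-05-093 was set against vehicle, they lay at -1.01 and 0.42. Each pair of ends came from different genes, so it is not a limit of detection. Between the treatments the interval of Adcy9 (-0.47 to -0.055) excluded 0. So did that of Adcy3 in YKL-05-093 against vehicle (-0.86 to -0.044). Their adjusted p-values of 0.112 and 0.498 did not pass (limma). The other intervals of these 9 members held 0.

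**Figure D3:**
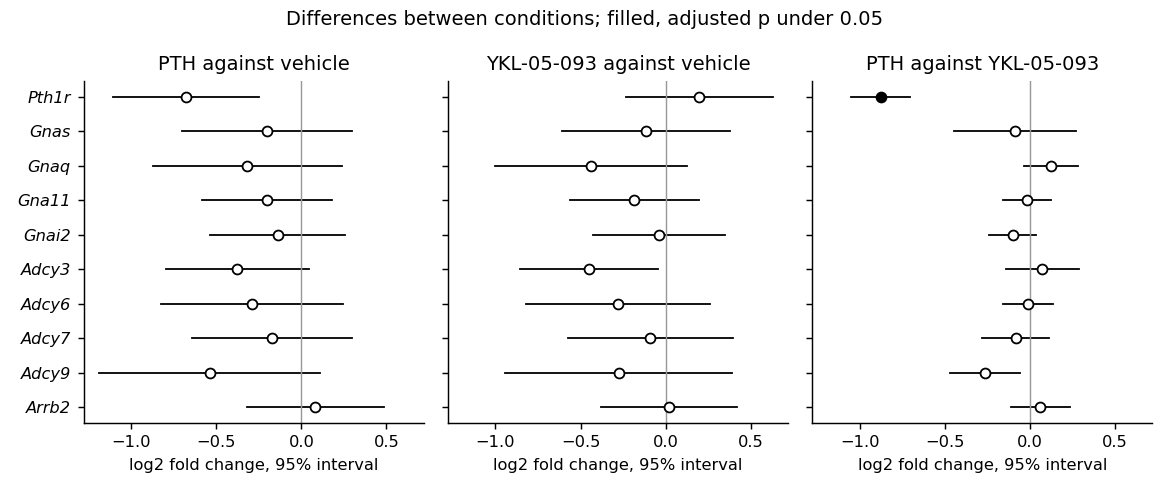
Log2 fold changes on log2(RPKM + 0.1) of the 10 genes in the 3 comparisons, with 95% intervals from limma and a filled point where the adjusted p was under 0.05. The point of Pth1r for PTH against YKL-05-093, at -0.88, is filled, and the intervals are narrower where the vehicle libraries do not enter.

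The vehicle pair stood further apart than the other pairs, along gene length, and the part of this in the members' values was not tested. The 2 vehicle libraries differed by a median of 0.333 on the log2 scale over 14264 genes, beside 0.108 for the PTH and 0.103 for the YKL-05-093 pair. Across genes, the log2 ratio of vehicle replicate 1 to vehicle replicate 2 rose with gene length (Spearman rho of 0.527, a description over genes that share the same 2 libraries), whereas rho was 0.0177 in the PTH pair and -0.178 in the YKL-05-093 pair. The median log2 ratio was -0.42 in the second decile of genes by length and 0.58 in the longest decile, where vehicle replicate 1 was the highest of the 6 libraries for 83.4% of the genes, beside 36.5% of all tested genes and 60% of the members.

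The members other than Gnas lay broadly along this gradient. Adcy9, Gnaq, Adcy6, Adcy7 and Adcy3, with gene lengths between 5995 and 6838 bases, had log2 ratios of 0.88, 0.69, 0.64, 0.50 and 0.27 between the vehicle libraries, while the shorter Pth1r, Arrb2 and Gnai2 were at -0.28, -0.28 and -0.028. Gna11, at 4788 bases, was at 0.11. Gnas, the longest at 10108 bases, was at -0.32, whereas the median of the longest decile was 0.58. In the fits that follow with a lone vehicle library, the spread was taken from the treated pair alone. Without vehicle replicate 2, so that vehicle replicate 1 stood alone, 6 members were called for PTH (Pth1r, Gnaq, Adcy3, Adcy6, Adcy7 and Adcy9) and 4 for YKL-05-093 (Gnaq, Adcy3, Adcy6 and Adcy9), where 31.6% and 19.1% of all genes were called. Without vehicle replicate 1, 1 member was called for PTH and 0 for YKL-05-093, where 9.35% and 0.309% of all genes were called. In that fit 7 of the 10 members had values below 0 for PTH, Arrb2 having turned to -0.057, and Gnaq, Adcy6 and Adcy7 had values above 0. For YKL-05-093 it was 6 of the 10. When each library's trend on gene length was taken out, a setting chosen after seeing the data, Pth1r alone was called for PTH against vehicle, at -0.68 ± 0.111 (SE) with an adjusted p of 0.0141 (limma, 6.21% of all genes called), and no member for YKL-05-093. The medians of the members were then -0.17 for PTH and -0.077 for YKL-05-093.

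**Figure D4:**
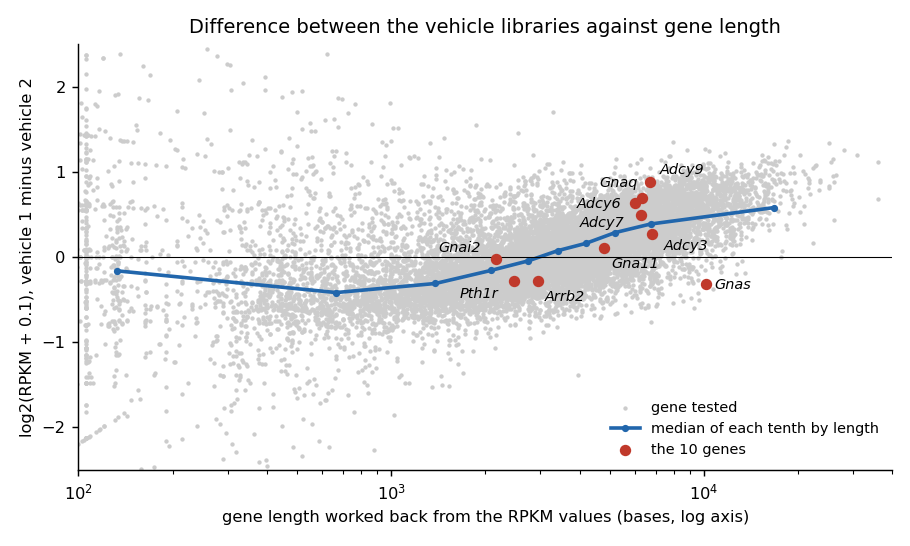
Difference in log2(RPKM + 0.1) between the 2 vehicle libraries (vertical axis) against gene length in bases on a log axis, for tested genes in grey, the median of each decile by length in blue and the 10 members in red (the shortest genes and the most extreme differences lie outside the axes). The medians rise from -0.42 in the second decile to 0.58 in the longest, and Gnaq and the cyclases lie above 0 on the right while Pth1r and Arrb2 lie below it.

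The wider set of receptor and G protein genes held 56 others in 7 lists (ligands, receptors and receptor activity-modifying proteins, G alpha, G beta and gamma, cyclases, arrestins and receptor kinases, chaperones and adaptors, and phospholipase C beta), of which 28 passed the filter. For PTH against vehicle 1 of the 28 rose and none fell, beside 1.26% and 0.94% of all genes. For YKL-05-093 against vehicle 1 rose and none fell, beside 0.393% and 0.274%. That gene was Gng4, which encodes a G protein gamma subunit. It was at 0.602 and 0.743 RPKM in vehicle, 3.69 and 3.24 RPKM in PTH, and 2.37 and 2.54 RPKM in YKL-05-093. All 4 treated libraries lay above both vehicle libraries, with the PTH libraries highest. The log2 fold change was 2.21 ± 0.2 (SE) for PTH (adjusted p = 0.00289) and 1.73 ± 0.206 for YKL-05-093 (adjusted p = 0.0242, limma). Without PTH replicate 1 or 2 the PTH value stayed at 2.12 and 2.30 with adjusted p-values of 0.0908 and 0.0735, and of the 4 fits for YKL-05-093 without 1 library the call held in 1. Of the 11 other settings the call held in 10 for PTH, the exception being no filter (adjusted p = 0.058), and in 8 for YKL-05-093, the exceptions being no filter (0.16), the trend on the mean value (0.115) and no trend (0.0807).

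Between the treatments 6 of the 28 were called, 2 higher and 4 lower with PTH, beside 4.85% higher and 5.11% lower among all genes. The higher ones were Gng4, by 0.48 ± 0.127 (SE) on the log2 scale (limma, adjusted p = 0.0237), and Gna12, the alpha subunit gene of G12, by 0.27 ± 0.072 (adjusted p = 0.025). The lower ones were Gnb4, a G beta subunit gene, Ramp1, a receptor activity-modifying protein gene, Gng7, a G gamma subunit gene, and Plcb4, a phospholipase C beta gene.

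Gnb4 was at 9.19 and 8.42 RPKM in vehicle, 5.77 and 5.38 RPKM in PTH, and 8.85 and 9.17 RPKM in YKL-05-093. Its PTH libraries lay below the other 4, and its log2 fold change between the treatments was -0.68 ± 0.069 (SE, limma, adjusted p = 4.73e-06). Ramp1 was at 16.5 and 27.7 RPKM in vehicle, 14.1 and 11.9 RPKM in PTH, and 18.0 and 18.6 RPKM in YKL-05-093, with a value of -0.50 ± 0.084 (adjusted p = 0.00077). Gng7 was at 2.77 and 2.54 RPKM, 2.10 and 1.62 RPKM, and 2.64 and 2.76 RPKM in the same order, with a value of -0.52 ± 0.119 (adjusted p = 0.00842). Plcb4 was at 2.91 and 1.797 RPKM, 1.25 and 1.24 RPKM, and 1.67 and 1.94 RPKM, with a value of -0.49 ± 0.113 (adjusted p = 0.00884). For all 4 genes the PTH libraries were the 2 lowest of the 6. When 1 library was left out, Gnb4 kept its call in 2 of 4 fits and the other 5 genes in none, with the same direction in each. Of the 11 other settings, Gnb4 was called in 9 and each of the other 5 in 7.

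**Figure D5:**
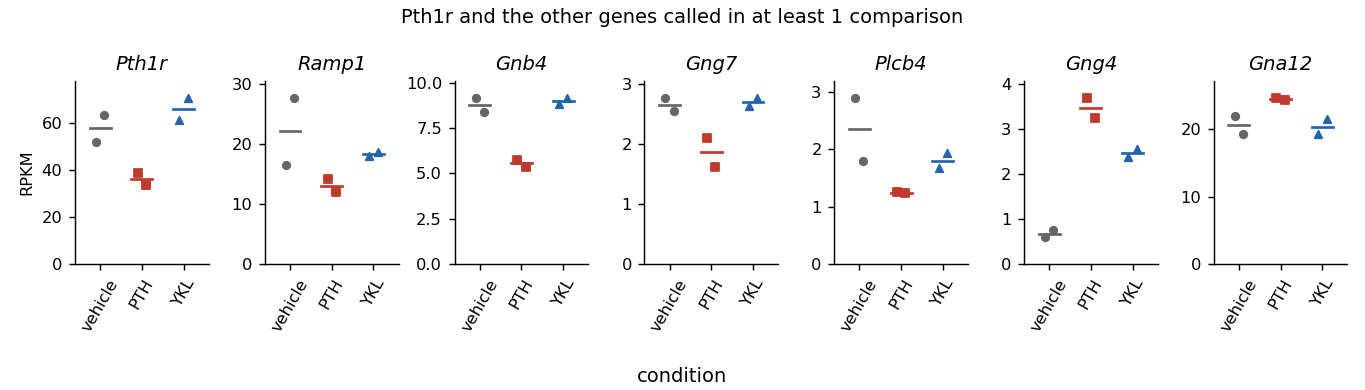
RPKM of Pth1r and of the 6 genes of the wider lists called in at least 1 comparison, with 1 point for each library and a bar at the mean of the 2 libraries of a condition, on linear axes that start at 0. The PTH libraries are the lowest for Pth1r, Ramp1, Gnb4, Gng7 and Plcb4 and the highest for Gng4 and Gna12.

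The highest expressed non-members of their lists were Gnai3 in G alpha (73.6 to 102 RPKM), Gnb2 in G beta and gamma (123 to 156 RPKM), Grk6 among the arrestins and receptor kinases (23.8 to 26.9 RPKM), Slc9a3r2 among the adaptors (10.8 to 13.7 RPKM) and Plcb3 in phospholipase C beta (15.7 to 25.8 RPKM), none of which passed the test. The other PTH receptor gene, Pth2r, did not exceed 0.0939 RPKM. Over the 6 libraries, the genes of these lists whose log2(RPKM + 0.1) was most like that of Pth1r were Gnb4 (Pearson r of 0.926), Gng7 (0.896) and Gnai2 (0.891), a description over 6 points from 3 conditions.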

How the data were processed

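Total RNA was measured in 6 libraries, after ribosomal RNA depletion, with a directional kit. Per the labels and the study's methods, the reads were processed with CASAVA 1.7, mapped with STAR to mm10/GRCm38 and counted with HTSeq 0.6.0 on Ensembl release 75, and the authors tested counts with edgeR. The authors deposited RPKM values, which are linear and not scaled between libraries.

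All 26214 genes above 0 gave whole reads within 0.001 read once gene lengths and library totals were worked back from the RPKM steps, for 99.7% of the totals. The lengths follow the authors' annotation, and 9506 equal the merged exons of GENCODE M21 less 1 base for each exon block. For the other genes the smallest length that gave whole reads was taken. Such a length and its reads come out divided by any factor that all the read numbers share. For a gene above 0 in only 1 library, whole reads are then no check. The recovered reads set the variance trend and the alternative voom.

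Log2(RPKM + 0.1) was tested with limma 3.58.1 in R 4.3.3, with the 4 libraries of each comparison, genes at 0.5 RPKM in 2 of 6 libraries, a variance trend on mean log2 reads, and Benjamini-Hochberg adjustment over all genes. Genes were called at an adjusted p under 0.05. Scripts were tested on simulated data. The replicate pairs differed by more than sampling noise (chi-square per gene of 87.9, 13.9 and 20.4 in vehicle, PTH and YKL-05-093).

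The text names all 10 members, the genes of the wider lists that were called, the highest expressed other gene of a list, and the 3 most like Pth1r. The members and lists were chosen with earlier results of these data known. Promoters are from RefSeq.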

Additional observations from a re-analysis of the deposited data

How the results depend on the processing

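Of 33 counts of called members, 30 were unchanged by the settings other than leaving out a library. The length correction, chosen after seeing the data, called 1 member for PTH against vehicle, and 0 were called between the treatments with no filter on low values or with no trend. Leaving out 1 library gave 0 to 6 called members for PTH against vehicle, 0 to 4 for YKL-05-093 against vehicle and 0 to 1 between the treatments. The cause was not tested.

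The genes called overall for PTH against vehicle (313) became 0 with no filter, 162 with the trend on the mean value, 130 with no trend, 567 in 1 fit of all 6 libraries, and 885 with the length correction, and ranged from 14 to 4507 without 1 library. For YKL-05-093 against vehicle (95) they became 55 with a pseudocount of 1, 0 with no filter, 6 with the trend on the mean value, 29 with no trend, 285 in 1 fit and 438 with the length correction, and ranged from 11 to 2726 without 1 library. Between the treatments (1421) they became 302 with no filter, 499 with the trend on the mean value, 51 with no trend and 146 in 1 fit, and ranged from 0 to 410 without 1 library.

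With the replicate number as a block, 758, 301 and 1750 genes were called in the 3 comparisons, and 0, 0 and 1 members. The replicate differences of the conditions correlated at -0.034, -0.054 and -0.049, so the numbers were not taken to pair the libraries.

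Directions turned only for genes that did not pass the test in the main fit of that comparison. For YKL-05-093 against vehicle, Gnai2 was 0.0048 with median-ratio scaling, and Gnas and Adcy7 were 0.055 and 0.020 with the length correction. Without 1 library, the log2 fold changes for PTH against vehicle ranged from -0.66 to 0.029 for Gnaq, -0.61 to 0.028 for Adcy6, -0.42 to 0.075 for Adcy7 and -0.057 to 0.22 for Arrb2. For YKL-05-093 against vehicle they ranged from -0.60 to 0.037 for Adcy6, -0.34 to 0.16 for Adcy7, -0.72 to 0.17 for Adcy9, -0.12 to 0.16 for Arrb2 and -0.27 to 0.043 for Gnas. Between the treatments they ranged from -0.26 to 0.088 for Gnas, -0.050 to 0.20 for Adcy3, -0.044 to 0.025 for Adcy6 and -0.064 to 0.027 for Gna11. With 2 libraries a condition, the data do not separate the values inside the interval given for each gene. For Gnas, 3 reads correspond to 0.0106 to 0.017 RPKM.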
